A study of Mus musculus with 6 samples.

Results

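In the embryonic mouse retina, 166 of 20661 autosomal protein-coding genes (0.803%) carried an open-chromatin peak at a gene end in all 3 libraries from Atoh7 SE/SE animals and in none of the 3 libraries from Atoh7 +/+ animals. These SE/SE-only genes included the axon guidance genes Slit1 and Robo3, the potassium channel gene Kcnk10, the homeobox genes Hoxc13, Pax9, Barx1 and Lmx1b, the collagen genes Col6a1 and Col9a3 and the glutamate receptor gene Grm6. The opposite pattern, 3 wild-type libraries and no SE/SE library, was met by 10 genes (0.0484%), all of whose peaks overlapped SE/SE peaks. Of the 166, 163 had SE/SE peaks that overlapped no wild-type peak, an outcome that the rule itself makes likely. Slit1 was not one of these. Grm6 rested in part on peaks close to the lowest signal of their lists. With the peak lists cut to equal length, the counts were 31 and 21. A gene counted as having a gene-end peak in a library when the summit of a deposited peak lay within 1 kb of the lower or the upper end of the gene. Because the presence and absence of peaks chose the genes, the strength of their SE/SE peaks is given below as a description with no test.

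Open chromatin was mapped by ATAC-seq, which uses Tn5, a transposase that inserts sequencing adapters where nucleosomes leave DNA uncovered. Retinas came from C57BL/6 embryos at E14.5 (days of embryonic life), and each library was the retinal pair of 1 animal. Both genotypes had 3 such libraries. Atoh7 +/+ is called wild type, and SE/SE animals carry a mutated shadow enhancer of Atoh7 on both copies of the gene. The alteration itself is described in the labels no further. About 100000 cells were transposed and 50000 cell equivalents were amplified, with 17, 18 and 19 PCR cycles for wild type and 15, 16 and 16 for SE/SE. The labels do not say which library had which number of cycles, and cycle number and genotype cannot be told apart. The retina was not sorted, so the share of cells with an open site and the degree of opening per cell cannot be told apart either.

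A peak at the start of a gene usually marks its promoter, the stretch where transcription begins, and promoters rich in CpG dinucleotides are open in most cell types whether or not the gene is strongly transcribed. Promoters poor in CpG tend to open in the cell types that use the gene. Atoh7 encodes a proneural transcription factor of the basic helix-loop-helix family, without which few retinal ganglion cells form; these neurons send their axons from the eye to the brain. A shadow enhancer is a second, often more distant, element that drives a pattern overlapping that of a gene's primary enhancer. The title of the study names its question as the part played by this enhancer in keeping Atoh7 transcription robust.

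The peak lists themselves differed in length. They held 31340, 34797 and 27873 peaks in wild type 1, 2 and 3, and 39115, 42722 and 44242 peaks in SE/SE 1, 2 and 3, so every SE/SE list was longer than every wild-type list. Gene-end peaks were found at 11844, 12035 and 11600 genes in the wild-type libraries (mean 11826 ± 218, SD, n = 3) and at 12278, 12421 and 12439 genes in the SE/SE libraries (12379 ± 88.2, SD, n = 3). The groups did not overlap, and the difference of 553 genes had p = 0.1 by a two-sided exact permutation test, the smallest p that 3 against 3 libraries allow. With the 27873 highest-signal peaks of each list the difference was 94.7 genes, again with an exact permutation p = 0.1, from 11632, 11665 and 11600 genes in wild type and 11706, 11772 and 11703 in SE/SE. Read depth is unknown from these files. As a check of the labels, each wild-type library had 2 peaks between 8 and 12 kb below the lower end of Atoh7 and no SE/SE library had a peak there, while all 6 libraries had a peak at an end of Atoh7. As a check of the tissue, marker genes with a gene-end peak in 6 of 6 libraries were counted, beside 55.3% of all genes. They were 19 of 19 neurogenic, 19 of 22 retinal progenitor and 1 of 20 microglial and blood markers. Other lists gave 20 of 34 retinal ganglion cell, 10 of 19 amacrine and horizontal, 5 of 22 photoreceptor and 16 of 18 housekeeping genes. These counts alone do not identify the tissue.

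Almost all of the SE/SE-only genes had weak peaks. The signal value of a peak is the area that the peak caller Genrich assigns to it, and no scaling between libraries is known, so each value is also given as a percentile, the rank of the peak within its own library's list. The median percentile of the 166 genes was 14.8 in SE/SE 1 (range 0.233 to 72.7), 23.1 in SE/SE 2 (0.0234 to 75.9) and 24.1 in SE/SE 3 (0.179 to 79.4). Over all gene-end peaks, the medians were 80.6, 82.1 and 82.4 in those lists. Averaged over the 3 lists, the percentile had a median of 20.1 (3.32 to 76.0), and it was below 25 for 112 genes and above 50 for 3, namely Slit1, Jsrp1 and Kcnk10. The median signal was 48.2, 73.8 and 76.8 in SE/SE 1, 2 and 3. The peaks were also narrow, with median widths of 150, 177 and 186 bases against 295, 294 and 289 for all peaks of those lists. Their median −log10 p was 4.20, 4.37 and 4.37, against 5.36, 5.32 and 5.28 for all peaks.

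**Figure D1:**
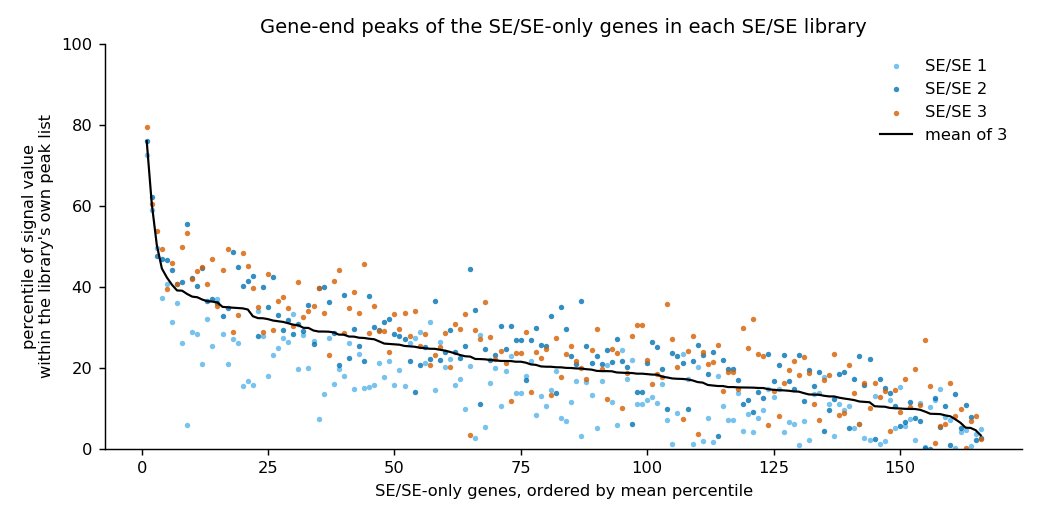
Each point is 1 SE/SE-only gene in 1 SE/SE library, with the percentile of its gene-end peak's signal value within that library's list on the vertical axis and the 166 genes ordered by their mean percentile on the horizontal axis. Most points lie in the lower part of each list, and SE/SE 1 holds the lowest of the 3 values for 116 genes.

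The 3 SE/SE libraries did not give a gene the same rank. The range of a gene's percentile over the 3 lists had a median of 13.6 points and reached 49.8 points. SE/SE 1, the shortest SE/SE list, had the lowest of the 3 percentiles for 116 genes, SE/SE 2 for 26 and SE/SE 3 for 24. Gnb3, which encodes a G protein beta subunit of cones and ON bipolar cells, showed the widest range, at percentiles 5.81, 55.6 and 53.3 in SE/SE 1, 2 and 3. Its summits lay 221, 241 and 246 bp from the gene's upper end, close to an end of P3h3. The weakest gene by mean percentile was LOC115489489, at 4.77, 2.72 and 2.48. Tyro3, a receptor tyrosine kinase gene, followed at 3.57, 2.05 and 8.15, and then Pcp4, a calmodulin regulator gene, at 0.662, 7.89 and 6.90.

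The SE/SE-only genes lay at the weak end of a graded series. Among genes with a gene-end peak in 3 of 3 SE/SE libraries, 166 had one in 0 wild-type libraries, 240 in 1, 304 in 2 and 11424 in 3. The median of the mean SE/SE percentile in these classes was 20.1, 26.1, 39.2 and 83.7. The quartiles of the first pair of classes overlapped, from 14.6 to 27.6 for the SE/SE-only genes and from 19.6 to 33.9 for the genes with 1 wild-type library. Of the 240 genes with a peak in 1 wild-type library, 193 had it in wild type 2, the longest wild-type list, 41 in wild type 1 and 6 in wild type 3, the shortest. A further 154 genes had no wild-type gene-end peak and a peak in 2 SE/SE libraries, and SE/SE 1 was the library without it for 107 of these, SE/SE 2 for 31 and SE/SE 3 for 16. In most of these nearest cases, then, the peak was present in the longest wild-type list or missing from the shortest SE/SE list.

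**Figure D2:**
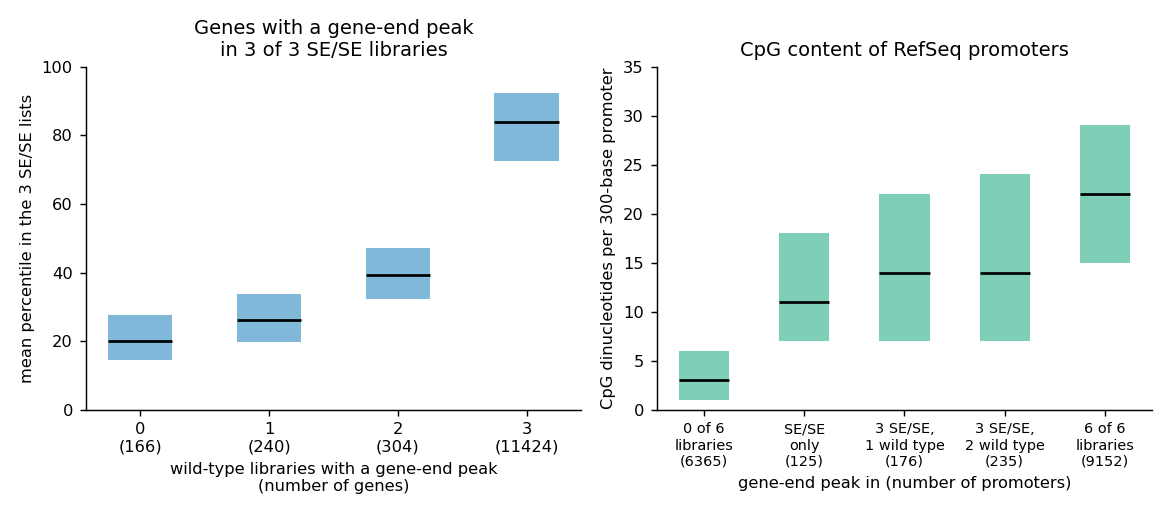
Left, the mean percentile in the 3 SE/SE lists (median and quartiles) for genes with a gene-end peak in 3 of 3 SE/SE libraries, by the number of wild-type libraries with one. Right, CpG dinucleotides per 300-base RefSeq promoter (median and quartiles) for 5 classes of genes. The SE/SE-only genes have the lowest percentile median, 20.1, and a CpG median of 11, between 3 for genes with a peak in no library and 22 for genes with a peak in 6 of 6.

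Slit1 and Jsrp1, the genes with the strongest peaks, met the rule through a few bases of distance. Slit1, a secreted guidance cue that repels retinal ganglion cell axons (gene ID 20562, GRCm38 chr19:41597824-41747275), had signal values of 717, 891 and 1009 in SE/SE 1, 2 and 3, at percentiles 72.7, 75.9 and 79.4. Its SE/SE summits lay 999, 996 and 986 bp from the upper gene end. In wild type 1, 2 and 3 a peak over the same bases had its summit 1021, 1004 and 1001 bp from that end, just outside 1 kb. Those wild-type peaks stood at percentiles 67.6, 69.7 and 57.2 of their own lists, so the site was called in 6 of 6 libraries.

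Jsrp1, a protein of the junctional sarcoplasmic reticulum of muscle (GRCm38 chr10:80808494-80813741), was alike in this respect. Its SE/SE peaks had signals of 371, 440 and 392 and summits 989, 996 and 986 bp from the lower gene end, and they lay close to an end of Amh. Overlapping wild-type peaks had summits at 1001, 1051 and 1015 bp. Fam107a, a gene for an actin-associated protein, was a partial case. Its SE/SE 2 peak, 992 bp from the gene end, overlapped a wild type 2 peak with a summit at 1027 bp, whereas its SE/SE 1 and SE/SE 3 peaks, 40 and 41 bp from the end, overlapped no wild-type peak. The SE/SE peaks of the other 163 genes overlapped no peak of any wild-type library by a single base.

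The same check removed the whole of the opposite pattern. All 10 wild-type-only genes (Nhsl1, Slc6a15, Fgf15, Adamts9, Map6, Spats2l, Cfap100, Zfp467, Sspo and Sapcd1) had wild-type peaks that overlapped peaks in 3 of 3 SE/SE libraries. For Fgf15, a growth factor gene of retinal progenitors, the SE/SE summits lay 1041, 1076 and 1025 bp from the gene end and the SE/SE peaks ranked at percentiles 98.8, 98.7 and 98.8. When genes whose peaks overlapped a peak of the other genotype were removed, 163 SE/SE-only genes and 0 wild-type-only genes remained. This way of counting was chosen after the values were seen. The rule had already excluded wild-type summits within 1 kb of a gene end, and the SE/SE peaks were narrow, so little overlap could remain. The share of all SE/SE peaks without an overlapping wild-type peak was not counted.

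Near the 1 kb limit the rule separated like genes. A summit between 900 and 1000 bp was found in at least 1 SE/SE library for 11 of the 166 genes, with mean percentiles from 8.66 to 76.0. With the limit at 1100 bp, 13 other genes would have met the rule, with mean percentiles from 9.46 to 66.6, and 6 would have been lost. Among the 13, and picked here after their values were seen, were Hoxd8, a homeobox gene with summits at 1055, 1004 and 984 bp, and Kcnk4, a 2-pore potassium channel gene with summits at 1037, 1051 and 1029 bp. In contrast, 112 of the 166 genes had all 3 summits within 500 bp.

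With the 27873 highest-signal peaks of each list, the length of the shortest list, few of the genes kept the pattern. This setting kept 88.9%, 80.1% and 100% of the wild-type peaks and 71.3%, 65.2% and 63.0% of the SE/SE peaks, down to signals of 94.6, 124 and 135 in SE/SE 1, 2 and 3. Gene-end peaks then remained in 0 SE/SE libraries for 121 of the 166 genes, in 1 for 25, in 2 for 11 and in 3 for 9. The 9 genes were Slit1, Jsrp1, Kcnk10, Kcnmb1, Tmem26, Gm10037, Zfp819, Hoxc13 and Ctxn2. Over all genes, the equal lists held 31 SE/SE-only genes (0.15%) and 21 wild-type-only genes (0.102%). Of the 31, 22 were not among the 166, since they had a peak in 1 or 2 wild-type libraries of the full lists. Of the 21, 10 had a gene-end peak in 3 of 3 SE/SE libraries of the full lists.

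Among the 9, 7 had no wild-type peak over the same bases in any full list. Kcnk10, which encodes a 2-pore potassium channel (gene ID 72258, GRCm38 chr12:98429432-98578213, minus strand), had signals of 240, 220 and 283 at percentiles 49.6, 47.5 and 53.7. Its 3 summits lay 18, 28 and 22 bp from the start of the gene, within a stretch shared by all 3 peaks at chr12:98577855-98578298. The nearest wild-type summits to a gene end lay 3179, 3419 and 3475 bp away.

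Kcnmb1, the beta subunit of the large-conductance calcium-activated potassium channel of smooth muscle (GRCm38 chr11:33962955-33973641), had signals of 138, 214 and 233 at percentiles 37.3, 46.9 and 49.4. Its peaks shared chr11:33963096-33963381, near the start, and no wild-type library had a peak in the gene or within 10 kb of it. Tmem26, a membrane protein gene (GRCm38 chr10:68723746-68782655), had signals of 161, 212 and 149, and the nearest wild-type summits lay 430507, 430497 and 430501 bp from a gene end. Hoxc13, a homeobox gene of hair and nail formation (GRCm38 chr15:102921131-102928814), had signals of 94.8, 172 and 166, the first just above the cut of that list. Ctxn2, a cortexin gene, had signals of 110, 135 and 158. Zfp819, a C2H2 zinc finger gene, had 130, 163 and 157, and Gm10037, a predicted gene, had 106, 189 and 200. In all 7 genes the 3 SE/SE peaks fell on the same bases.

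The promoters of 4 of these genes are printed because an SE/SE summit lies within them and their peaks were among the highest of the 166. They are from RefSeq on GRCm38.p6, run from 250 bases before to 50 bases after the annotated start, and are written 5′ to 3′ on the gene's strand, with CpG dinucleotides in capitals. Kcnk10 is chr12:98578164-98578463, minus strand, Tmem26 is chr10:68723496-68723795, plus strand, Gm10037 is chr13:67830856-67831155, plus strand, and Zfp819 is chr7:43606919-43607218, plus strand.
Kcnk10: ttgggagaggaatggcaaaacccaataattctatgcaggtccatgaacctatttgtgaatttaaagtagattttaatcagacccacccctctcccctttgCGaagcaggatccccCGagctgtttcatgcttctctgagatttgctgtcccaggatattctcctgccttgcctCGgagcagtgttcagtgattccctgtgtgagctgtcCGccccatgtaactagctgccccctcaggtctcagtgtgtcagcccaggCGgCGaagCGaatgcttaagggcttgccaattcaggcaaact
Tmem26: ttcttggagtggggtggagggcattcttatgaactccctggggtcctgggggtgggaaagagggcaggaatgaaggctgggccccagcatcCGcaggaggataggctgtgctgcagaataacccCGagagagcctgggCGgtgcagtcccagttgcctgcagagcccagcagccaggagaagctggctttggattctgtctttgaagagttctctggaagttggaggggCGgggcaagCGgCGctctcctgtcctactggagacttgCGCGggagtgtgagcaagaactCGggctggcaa
Gm10037: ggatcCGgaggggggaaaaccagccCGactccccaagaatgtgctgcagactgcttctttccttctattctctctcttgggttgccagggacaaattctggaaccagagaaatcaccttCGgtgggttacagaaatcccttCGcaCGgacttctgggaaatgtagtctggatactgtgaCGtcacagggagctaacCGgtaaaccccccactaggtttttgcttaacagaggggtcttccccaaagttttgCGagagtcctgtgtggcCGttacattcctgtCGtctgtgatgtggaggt
Zfp819: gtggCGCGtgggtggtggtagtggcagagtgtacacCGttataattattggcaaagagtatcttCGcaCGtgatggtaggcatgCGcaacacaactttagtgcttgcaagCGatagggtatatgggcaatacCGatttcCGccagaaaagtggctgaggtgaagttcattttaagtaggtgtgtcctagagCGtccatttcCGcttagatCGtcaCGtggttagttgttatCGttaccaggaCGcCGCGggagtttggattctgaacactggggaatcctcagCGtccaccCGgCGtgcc

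These promoters differed in CpG content. Counting from the first base printed, the Kcnk10 summits fell at bases 233, 223 and 229 of a window with 7 CpG. In Gm10037, with 10 CpG, they fell at bases 172, 170 and 165. In Zfp819, with 20 CpG, they fell at bases 282, 278 and 222. For Tmem26, with 9 CpG, the SE/SE 2 summit fell at base 206 and the other two lay outside the window.

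As a group the SE/SE-only genes had promoters of intermediate CpG content. A RefSeq promoter was matched by gene ID for 125 of the 166 genes. These 300-base windows held a median of 11 CpG (quartiles 7 and 18). The median was 22 (15 and 29) for 9152 genes with a gene-end peak in 6 of 6 libraries and 3 (1 and 6) for 6365 genes with none in any library. For genes with 3 SE/SE libraries and 1 or 2 wild-type libraries the median was 14 in both classes. The median GC content was 57.3% in the SE/SE-only promoters, 62.0% in the 6-of-6 class and 47.7% in the class with no peak. The classes were formed from the peaks, so these values are descriptions with no test.

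Short motifs were searched on both strands of the same windows, and the shares in the 125 promoters differed by less than 8 points from those in all 16456 autosomal promoters. The ETS core CCGGAA occurred in 13.6% of the SE/SE-only promoters, in 19.5% of all promoters and in 28.8% of the 6-of-6 class. The GC box GGGCGG occurred in 43.2%, 47.3% and 68.1%, in that order. The AP-1 site TGANTCA occurred in 11.2%, 7.12% and 3.78%, and in 11.9% of promoters of genes with no peak. The E-box CANNTG, the motif of basic helix-loop-helix factors, occurred in 72.8% of SE/SE-only and 68.4% of all promoters. The homeodomain core TAATTA occurred in 2.4% and 4.61%, the Otx and Crx core TAATCC in 8.0% and 6.50%, and the Sox core ACAAAG in 14.4% and 16.5%. The TATA box TATAAA occurred in 7.2% and 13.5%, and the CCAAT box in 31.2% and 39.1%. A match is a description of these letters and not evidence that a factor binds.

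Most of the genes had their peaks at the start. Strand was known from RefSeq for 125 genes, and the SE/SE summits lay at the start for 101 of them (80.8%) and at the far end for 24 (19.2%). Among 9152 genes with a gene-end peak in 6 of 6 libraries and a known strand, the shares were 95.8% and 3.82%. In 149 of the 166 genes the 3 SE/SE peaks shared bases, with a median span of 27 bp between their summits. In the other 17 the libraries had peaks at different places near the gene, among them Rab27b, a small GTPase gene of vesicle transport, and Prmt8, an arginine methyltransferase gene of neurons. The 166 genes rested on 163 distinct peaks of SE/SE 1, because Bco2 and Il18, Sbk2 and Sbk3, and Chrne and 4930544D05Rik each shared 1 peak, and 19 genes had an end of another gene within 1 kb of a summit. The genes lay on all 19 autosomes, with at most 15 on one chromosome (chromosome 4). Their median length was 19013.5 bases, against 17491 for all genes tested.

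The surroundings of the genes differed widely in wild type. For the 163 genes without an overlapping wild-type peak, the nearest peak of any wild-type library lay a median of 14449 bp from the SE/SE summits, from 158 bp to 440425 bp. It was within 1 kb for 10 genes and beyond 10 kb for 98. Within the gene body extended by 10 kb on each side, 85 of the 166 genes had a peak in 3 of 3 wild-type libraries and 63 had a peak in none. Of those 63, 40 had a single peak there in each SE/SE library, the gene-end peak itself. Nodal, a signal of early embryonic patterning, and Fgf4, a fibroblast growth factor gene, both had 0 wild-type peaks in that interval. Each also had an SE/SE peak close to the lowest signal of its list. Robo3, the receptor that lets commissural axons cross the midline, was of the other kind, with 4, 4 and 3 wild-type peaks there. Its nearest wild-type summits lay 1249, 1209 and 1229 bp from the gene end and its SE/SE summits 315, 314 and 310 bp from it.

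**Figure D3:**
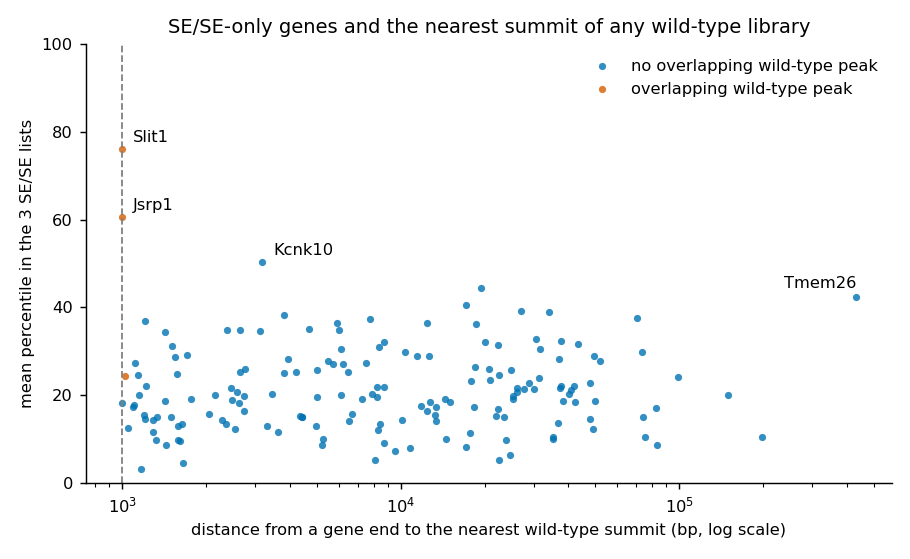
Each point is 1 SE/SE-only gene, with the distance in bp (log scale) from a gene end to the nearest summit of any wild-type library on the horizontal axis and the mean percentile of its SE/SE peaks on the vertical axis; the dashed line is the 1 kb limit. Slit1 and Jsrp1, at mean percentiles of 76.0 and 60.5, stand at the limit itself, and 33 genes in all have a wild-type summit above 1 kb and up to 2000 bp.

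Nearly all of the 166 genes, absent from the wild-type per-library lists by the rule, were present in the joint list of that genotype. The authors deposited 1 further list per genotype, with 104991 peaks for wild type and 120772 for SE/SE. In the joint wild-type list, 160 of the 166 genes (96.4%, 95% Clopper-Pearson interval 92.3 to 98.7, counting error only) had a gene-end peak, at a median percentile of 73.7 (22.9 to 88.1). The interval treats the genes as independent draws, but these data chose them and some share a peak. It measures no spread between animals and serves only to sort the alternative settings given at the end. In the joint SE/SE list 160 genes had one, at a median percentile of 79.0, and 158 genes had one in both lists. The joint lists differ in length, so their percentiles cannot be compared between genotypes. Of the 158 genes, 157 had the lower joint signal in wild type, as had 99.5% of the 6-of-6 genes in both lists. The median ratio of wild-type to SE/SE signal was 0.610 for the 158 and 0.830 for the 6-of-6 genes. The rule chose genes without wild-type gene-end peaks, so these values are a description with no test. Of all 20661 genes, 66.0% had a gene-end peak in the joint wild-type list, as had 14.8% of the genes with none in any library. In the classes nearest to the 166 the share was close to theirs, at 96.7% of genes with 3 SE/SE libraries and 1 wild-type library, 94.7% with 3 and 2, 94.2% with 2 and 0 and 92.3% with 1 and 0.

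The 6 genes without a joint wild-type gene-end peak were Slit1, Prmt8, Lnx1, Lvrn, Vgll4 and LOC115489489. For each of them a joint wild-type peak covered part of the span of the SE/SE peaks, and its summit lay farther than 1 kb from a gene end. For Slit1 the joint summit lay at 1007 bp and for Vgll4, a cofactor of TEAD transcription factors, at 1003 bp. For Lnx1, a ubiquitin ligase gene, it lay at 1583 bp, for Lvrn, an aminopeptidase gene, at 1459 bp, for Prmt8 at 1498 bp and for LOC115489489 at 1166 bp. For each of the 166 genes, a joint wild-type peak overlapped the span from the first to the last base of its SE/SE peaks. In the 17 genes with peaks at different places, that span includes bases outside the peaks. A joint gene-end peak need not lie at the SE/SE site, and that of Gm10037 lay near the other end of the gene. Among genes with high joint wild-type ranks, Gnb3 stood at percentile 86.0, Tmem26 at 81.8, Kcnk10 at 78.3 and Robo3 at 78.5.

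By function the SE/SE-only genes were mixed. Of 18 groups defined by gene symbols, 15 held at least 1 of the genes, and 58 of the 166 genes (34.9%) fell in a group, against 33.7% of all genes tested. The share of a group's genes that were SE/SE-only ran from 0 to 2.56%, beside 0.803% over all genes. Counts were too small to rank the groups: 7 was the most in any of them.

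**Figure D4:**
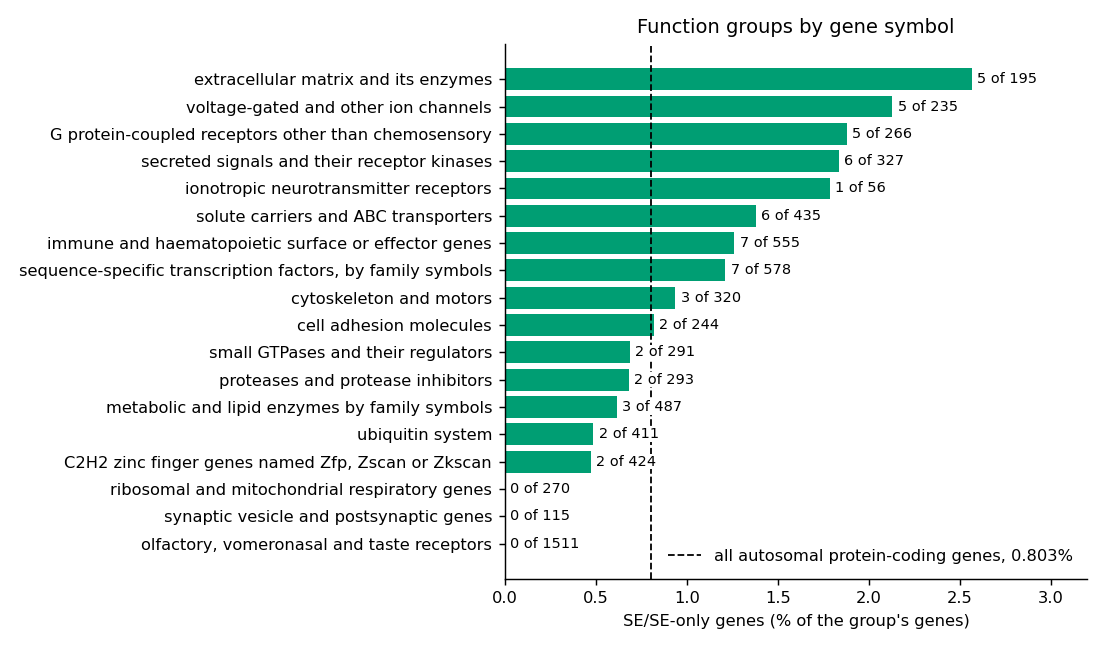
Bars give the percentage of each function group's genes that were SE/SE-only, with the number of such genes and the size of the group; the dashed line is the 0.803% of all autosomal protein-coding genes. The groups run from 0 to 2.56% with at most 7 genes in any, and the chemosensory receptor, synaptic and ribosomal or respiratory groups have none.

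Secreted signals and their receptor kinases held 6 of 327 genes by symbol, namely Slit1, Robo3, Flt1, Nodal, Edn1 and Fgf4. Of these, Robo3 is a guidance receptor caught by its symbol. Robo3 had signals of 65.7, 193 and 191 in SE/SE 1, 2 and 3, at percentiles 20.9, 44.7 and 44.9. Nodal had 21.8, 75.9 and 88.7, the first close to the minimum of its list. Flt1, a receptor for vascular endothelial growth factor, had 24.6, 134 and 62.8, with summits 643, 683 and 682 bp from the gene's start. In both Nodal and Flt1 the SE/SE 1 peak was the weakest by far. Edn1, the vasoconstrictor endothelin, had 44.0, 23.6 and 52.3, and its 3 peaks did not share bases. Fgf4 had 27.4, 39.1 and 20.2, the last close to the minimum of its list.

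Transcription factor families held 7 of 578 genes, namely Hoxc13, Barx1, Pax9, Lmx1b, Rarg, Tal1 and Lhx6. Barx1, a homeobox gene of stomach and tooth, had signals of 60.2, 79.8 and 66.6. Pax9, needed for tooth and thymus, had 53.9, 66.2 and 62.3. Values of these 2 genes varied little between the libraries, at percentiles between 16.8 and 24.7. Lmx1b, which patterns the dorsal limb and the front of the eye, had 33.0, 59.2 and 65.9, with summits 89, 72 and 97 bp from the start of the gene. Rarg, a retinoic acid receptor gene, and Tal1, a regulator of blood formation, were weak, with mean percentiles below 25. Lhx6, a regulator of cortical interneurons, ranked at 0.233, 13.5 and 8.02. Fezf1, Dbx2, Scx and Mesp1, 4 more developmental transcription factor genes that the symbol patterns missed, were picked out after the values were seen. Zinc finger genes named Zfp, Zscan or Zkscan held 2 of 424, Zfp819 and Zfp385c.

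Ion channels held 5 of 235 genes, Kcnk10, Kcnmb1, Ano2, Kcnj6 and Cacna1e. Ano2, a calcium-activated chloride channel of photoreceptor synapses and olfactory neurons, had signals of 62.1, 66.0 and 183. Kcnj6, a G protein-gated potassium channel, had 68.0, 111 and 75.9. Cacna1e, the R-type calcium channel, had 36.6, 60.5 and 34.9. Of the 235 genes, 114 had a gene-end peak in 6 of 6 libraries and 85 in none. Among ionotropic neurotransmitter receptors, 1 of 56 was SE/SE-only, Chrne, the epsilon subunit of the adult muscle acetylcholine receptor, with 46.2, 88.1 and 75.2.

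G protein-coupled receptors other than chemosensory held 5 of 266 genes. They were Adgrf5 and Adgrb1, adhesion receptors of lung and brain, Mc3r, a melanocortin receptor, Lgr6, a receptor for R-spondins, and Grm6. Adgrf5 had signals of 73.8, 82.0 and 117, Adgrb1 47.7, 115 and 44.8, Mc3r 42.0, 67.5 and 69.4, and Lgr6 32.8, 46.9 and 74.3. Grm6, the glutamate receptor of ON bipolar cells, had 20.6 and 20.3 in SE/SE 1 and 2, within 1 of the lowest value in those lists, and 87.6 in SE/SE 3. Its call in the first pair of libraries therefore rested on peaks at the bottom of the list.

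The extracellular matrix group held 5 of 195 genes (2.56%), among them Col9a3, Col6a1, Mmp23 and Thbs2. Col9a3, a chain of the cartilage and vitreous collagen IX, had signals of 90.5, 158 and 95.6. Col6a1, a chain of the pericellular collagen VI, had 94.6, 65.9 and 81.3, with its highest value in SE/SE 1. Mmp23, a metalloprotease, had 26.3, 73.7 and 52.0, and Thbs2, a thrombospondin, had 26.5, 28.4 and 37.2. The group also held 104 genes with a gene-end peak in 6 of 6 libraries, 51 with none and 40 between.

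Transporters and aquaporins held 6 of 435 genes. Aqp3, a water and glycerol channel, had signals of 38.5, 103 and 77.2, and Slc26a5, the motor protein prestin of cochlear outer hair cells, had 21.6, 68.6 and 91.8. The others were Slc25a45, Slc13a3, Slc16a5 and Slc44a3. Immune and haematopoietic genes held 7 of 555, and of these Ifitm3, an antiviral membrane protein, was strongest, with 119, 91.5 and 125. Cd14, a coreceptor for lipopolysaccharide, had 63.1, 73.9 and 70.5, and the rest were Tnfaip8l2, Il18, Il12rb2, H2-K1 and Clec3b. In this group 415 of the 555 genes lacked a gene-end peak in every library, against 38.6% of all genes.

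The smaller groups held few of the genes. Cytoskeletal genes held 3 of 320, the hair keratin gene Krt86, Krt88 and Tnni1, the troponin I of slow muscle. Cell adhesion genes held 2 of 244, Flrt2, a ligand of guidance receptors, with 53.6, 167 and 192, and Cldn14, a tight junction claudin, with 21.8, 55.4 and 43.6. Small GTPases and their regulators held 2 of 291, Rab27b and Rap1gap2, and the ubiquitin system held 2 of 411, Trim14 and Trim58. Enzymes of metabolism held 3 of 487 by symbol, Dgkg, a diacylglycerol kinase, Gstt1, a glutathione transferase, and Pde4dip, an anchoring protein caught by its prefix. Proteases and inhibitors held 2 of 293 by symbol, Wfdc1 and Cpne7, the latter a copine caught by its prefix. None was found among 115 synaptic genes, of which 83 had a gene-end peak in 6 of 6 libraries, among 270 ribosomal and respiratory genes, of which 239 had one, or among 1511 chemosensory receptor genes, of which 1500 had none in any library.

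Markers of the cell types of the eye and its surroundings were counted in the same way. Of 255 autosomal genes in 12 marker lists, 3 were SE/SE-only (1.18%, beside 0.803% of all genes): Grm6 of bipolar cells (1 of 20 in that list), Wfdc1 of the pigment epithelium (1 of 19) and Flt1 of endothelium (1 of 19). Wfdc1, a secreted protein of the whey acidic protein family, had signals of 61.5, 91.9 and 99.5. No SE/SE-only gene was among the 34 markers of retinal ganglion cells, 22 of progenitors, 19 of the neurogenic transition, 22 of photoreceptors, 19 of amacrine and horizontal cells, 24 of lens, 20 of microglia and blood, 22 of mesenchyme and optic stalk or 18 housekeeping genes. At 0.803% of all genes, lists of this size would hold fewer than 1 on average, so a count of 0 sets none of them apart. Of the 19 endothelial markers, 3 had a gene-end peak in 6 of 6 libraries, 11 in none and 5 between. Their part in the result for Flt1 was not tested.

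The number of SE/SE-only genes can only stay or rise when a library is left out, and it rose most for 2 of them. Without wild type 2 it was 359 and without SE/SE 1 it was 273, while leaving out any other library gave 172 to 207. A higher signal limit did not lower the number. With only peaks of signal 50 or more it was 219, of which 63 were among the 166, and at 100 or more it was 259, of which 9 were. The rule at these limits therefore picked out mostly other genes, those whose weaker wild-type peaks had been removed. At every setting in which the lists kept their own lengths, SE/SE-only genes outnumbered wild-type-only genes by more than 10 to 1, and at equal length they numbered 31 and 21.

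**Figure D5:**
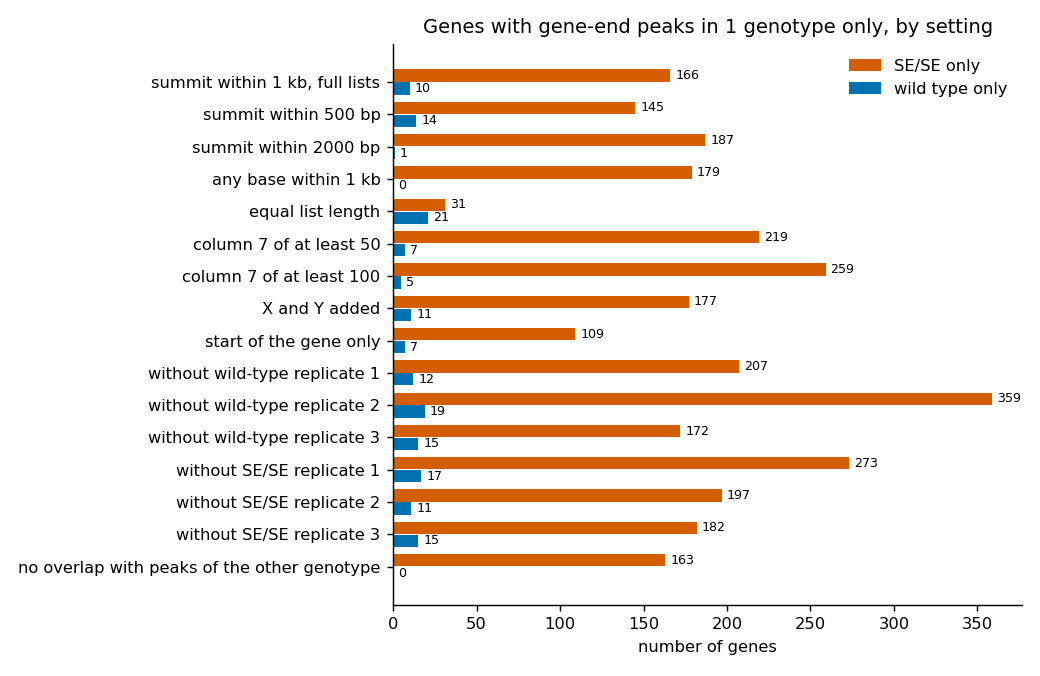
Bars give the number of protein-coding genes, autosomal except where X and Y are added, under each setting named on the vertical axis. The genes had gene-end peaks in every library used of 1 genotype and in none of the other, for SE/SE only and wild type only. The counts are 166 and 10 for the full lists and 31 and 21 for lists of equal length, and leaving out wild type 2 gives 359 and 19.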

How the data were processed

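Peak lists were deposited for 6 ATAC-seq libraries and, jointly, for each genotype. Per the file headers they are narrowPeak tables, and Genrich 0.5, limma, BWA, bedtools 2.27.0 and cutadapt are the tools, and GRCm38 (mm10) the build, listed in the submitters' processing notes. Read shifting, duplicate removal and how the joint lists were made are not given in the sources used here. The signal values (peak area), −log10 p and scores are the authors' deposited values, with no known scaling between libraries, so ranks were taken within a list. A weaker or shallower library loses peaks near the calling limit, and depth is unknown. Peak summits were set against the ends of 20661 genes of RefSeq (GRCm38.p6), in Python 3.11.15 with pandas 2.3.3 and scipy 1.17.1, and the counting was checked on simulated lists. The members, function groups and marker lists were chosen with earlier results of these data known. Named genes were those in marker lists, the strongest 4 of each function group, the 10 strongest and 3 weakest of the 166, those that kept the pattern at equal list length, those without a joint wild-type gene-end peak and the 3 nearest the 1 kb limit; others are stated as chosen after their values were seen or complete a group. Alternatives were other distances, overlap, equal list length, signal limits, added sex chromosomes, gene starts and leaving out each library. The values of 1 extracellular matrix gene are not reported here.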

Additional observations from a re-analysis of the deposited data

How the results depend on the processing

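Of 75 alternative values, 57 were labelled as kept, 18 as moved and 0 as reversed. A count of genes was kept if it stayed within a set ratio to the main count. The median percentile was kept within the SD of the 3 library medians, and the share within the interval given for it. The difference per library was labelled by its direction alone, and only it could be labelled as reversed. The alternatives to the difference of 553 genes per library are all among the 57, since its direction was kept. Its p by the exact permutation test was 0.1 at every setting without a replicate block. At equal list length the difference was 94.7. The count of 166 SE/SE-only genes was 31 at equal list length, 259 with signals of at least 100 and 109 when the peak had to lie at the start, where only genes of known strand could count. The count of 10 wild-type-only genes was 21 at equal list length, 5 with signals of at least 100, 1 with summits within 2000 bp, 0 with any base of a peak within 1 kb and 0 when overlapping peaks of the other genotype were not allowed, a setting added after seeing the data. The median percentile of 20.1 was 42.3 at equal list length, 31.6 with signals of at least 50 and 42.8 with at least 100. The share of genes in the joint wild-type list, 96.4%, was 84.1% within 500 bp, 100% within 2000 bp and 100% with any base. Leaving out 1 library gave 172 to 359 SE/SE-only genes, 11 to 19 wild-type-only genes, medians of 17.3 to 23.6, shares of 95.4% to 96.6% and differences of 440 to 657 genes with a gene-end peak per library. The cause of these movements was not tested, except that fewer peaks or genes enter where a limit is raised or strand is required. Leaving out a library also cannot lower either count of genes with peaks in 1 genotype only.

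With the replicate number as a block, the difference of 553 genes had an exact sign-flip p = 0.25. Deviations of a library's percentiles from the mean of its genotype correlated at -0.053, 0.174 and -0.171 across genes for same-numbered libraries. For libraries of different numbers the correlations ran from -0.309 to 0.335. These correlations cannot decide whether the libraries were paired. Depth is unknown, so a peak missing from a list is not shown to be absent from the chromatin.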

Other observations

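At equal list length, 22 SE/SE-only genes were not among the 166, and those named here were picked after their values were seen. They included Nkx2-2 and Gsx1, homeobox genes of ventral and dorsal neural progenitors, with mean SE/SE percentiles of 44.0 and 41.7. Nrl, the rod photoreceptor transcription factor, stood at 39.6, with its peaks at the far end of the gene and not at its start. Slit3, a guidance cue related to Slit1, stood at 51.3, Fgf20 at 38.4 and Foxe3, a lens transcription factor, at 36.7. Each had a gene-end peak in 1 or 2 wild-type libraries of the full lists.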
